A study of Mus musculus with 12 samples.

Results

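Transcription factor genes of the kidney lineage, 8 in number, were followed through 12 RNA sequencing libraries of primary tubular epithelial cells: Hnf4a, Hnf4g, Pax2, Pax8, Lhx1, Tfcp2l1, Tfap2b and Emx1. They were taken by name from a deposited count table of 44792 gene symbols; all 8 were found, and all 8 passed the filter on low counts that left 17019 genes. The cells came from the kidney cortex of C57BL/6 mice, with 3 libraries from each of 4 genotypes and, per the series' design text, 3 mice of each genotype. Wild type mice were Setd2fl/fl with no Cre in the label, Setd2 knockout mice Ksp1.3/cre; Setd2fl/fl, MYC mice Ksp1.3/cre; MYCfl/fl, and MYC Setd2 knockout mice Ksp1.3/cre; MYCfl/fl;Setd2fl/fl. All groups other than MYC therefore carry the floxed Setd2 allele, and all groups other than wild type carry Cre. The Ksp-cadherin (Cdh16) promoter that drives Cre is active in tubular epithelium and is known to be strongest in the distal nephron and collecting duct. The sources used here give no ages.

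Hnf4a and Hnf4g are nuclear receptors, and Hnf4a is known as a regulator of proximal tubule maturation. Pax2 and Pax8 are paired-box factors that act together in forming the nephric lineage; Pax8 stays on in adult tubule epithelium, while Pax2 is best known from the developing kidney, the collecting duct and regenerating tubules. Lhx1 is a LIM homeobox factor required for the nephric duct and for early nephron patterning. Tfcp2l1, a relative of the grainyhead factors, acts in collecting duct cells, Tfap2b in the distal convoluted tubule, and Emx1 is a homeobox factor best known from the cerebral cortex, where its paralog Emx2 is also active; Emx2 is needed for the ureteric bud.

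Promoter windows of the members that were low together in the libraries are shown first, because they were searched for the motifs named below. The windows are RefSeq's, in build GRCm38.p6, and run from 250 bases before to 50 bases after an annotated start; 7 of the 8 members had at least 1. The single capital marks the annotated start. The first Hnf4a window lies at chr2:163506607-163506906 and the second at chr2:163546905-163547204, both on the plus strand. The Lhx1 window lies at chr11:84525485-84525784 on the minus strand and that of Emx1 at chr6:85187681-85187980 on the plus strand.
Hnf4a, upstream start: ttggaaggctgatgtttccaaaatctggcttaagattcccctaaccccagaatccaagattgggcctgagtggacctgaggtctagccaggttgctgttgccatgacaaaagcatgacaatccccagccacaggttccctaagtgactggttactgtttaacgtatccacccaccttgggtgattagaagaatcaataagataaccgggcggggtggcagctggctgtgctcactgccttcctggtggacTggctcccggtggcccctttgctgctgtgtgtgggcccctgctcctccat
Hnf4a, downstream start: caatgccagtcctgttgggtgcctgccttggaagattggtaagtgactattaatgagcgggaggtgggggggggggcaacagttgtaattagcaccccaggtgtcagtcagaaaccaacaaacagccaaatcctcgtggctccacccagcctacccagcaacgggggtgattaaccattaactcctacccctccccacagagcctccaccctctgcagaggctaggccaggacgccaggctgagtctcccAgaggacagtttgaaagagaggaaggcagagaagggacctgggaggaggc
Lhx1: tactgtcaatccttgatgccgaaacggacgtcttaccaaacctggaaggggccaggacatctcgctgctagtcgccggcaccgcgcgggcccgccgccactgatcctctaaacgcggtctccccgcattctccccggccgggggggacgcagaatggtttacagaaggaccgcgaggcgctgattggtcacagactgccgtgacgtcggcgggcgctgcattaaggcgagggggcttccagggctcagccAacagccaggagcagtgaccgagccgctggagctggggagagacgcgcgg
Emx1: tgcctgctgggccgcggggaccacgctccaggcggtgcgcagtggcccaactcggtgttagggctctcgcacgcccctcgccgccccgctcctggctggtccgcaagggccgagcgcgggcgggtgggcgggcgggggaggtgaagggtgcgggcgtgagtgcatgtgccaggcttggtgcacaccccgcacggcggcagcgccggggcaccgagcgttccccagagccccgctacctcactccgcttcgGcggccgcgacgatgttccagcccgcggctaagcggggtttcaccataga
Motifs were searched on both strands of the members' 10 windows and of all 32851 windows in the table. The E-box CACGTG, a site that MYC and its partner MAX can bind, was in 0 of the 10 windows against 7.15% of all windows. CAAAGTCCA, a form of the HNF4 site, was in 0 of the 10 against 0.475%. At such shares few or no matches would be looked for in any 10 windows, so the search cannot set the members apart from other genes. These are matches of letters within 300 bases and are no measure of binding.

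The libraries were checked before the members were read. Total counts ran from 8889185 to 44227191. Mitochondrial ribosomal RNA split the libraries into 3 sets that cut across the genotypes, named counting sets here. The sets were drawn from these counts, and the sources used here do not say whether they were prepared or counted separately. It was over 10000 CPM (counts scaled to the library total) in all wild type libraries with Setd2 knockout 1 and 2 (set 1). It was under 100 CPM in 4 libraries, MYC 2, MYC 3, Setd2 knockout 3 and MYC Setd2 knockout 3 (set 3). MYC Setd2 knockout 1 and 2 and MYC 1 lay between (set 2). No set holds wild type together with MYC, and Setd2 knockout 3 alone ties set 1 to the others; that library has Xist and no Y-linked Ddx3y, unlike the other 2 of its group, so a term for the set carries a difference in sex there. MYC Setd2 knockout 1 and 3 also have Xist and no Ddx3y, and the other 9 libraries, MYC 2 and 3 included, have Ddx3y. Setd2, the gene targeted in 2 of the groups, ranged from 56.0 to 68.6 CPM in wild type against 50.9 to 69.7 with the knockout, and Myc from 2.48 to 2.72 CPM in wild type against 3.56 to 7.06 with MYC. In MYC Setd2 knockout the ranges were 45.6 to 102 CPM for Setd2 and 2.02 to 17.8 CPM for Myc, and on the tested scale Myc stood at 0.32 ± 0.52 in MYC against wild type (edgeR adjusted p = 0.669), so the genotypes rest on the labels; counts over a whole gene do not show whether a floxed part was lost. Cdh16 stood at 436 to 1740 CPM and all 35 proximal tubule markers were detected in every library. Podocyte markers summed to 196 to 2523 CPM in the same libraries.

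Levels below are CPM on library totals corrected by edgeR for composition (TMM), the scale of the tests. Summed CPM of marker lists are on total counts instead. TMM factors were 0.79 to 0.797 in wild type and 1.447, 1.499 and 1.274 in MYC 2, MYC 3 and MYC Setd2 knockout 3. Sums on total counts therefore set these 3 libraries higher against wild type than the TMM scale would. Per length (CPM per kilobase of the deposited transcript length, RPKM), Hnf4a was the highest of the members in wild type, at 202.5 ± 19.6 RPKM (SD, n = 3), followed by Tfcp2l1 at 37.0 ± 1.11, Pax8 at 28.1 ± 0.976 and Emx1 at 26.9 ± 3.36 RPKM. Lhx1 at 7.02 ± 1.43, Tfap2b at 6.33 ± 0.836 and Hnf4g at 5.46 ± 0.958 RPKM came next, and Pax2 was lowest at 0.908 ± 0.159 RPKM. The ranges of Pax8 and Emx1 overlapped, as did those of Lhx1, Tfap2b and Hnf4g, so their order is not resolved. In MYC the order changed at the lower end: Pax2, at 3.57 ± 1.40 RPKM, stood above Lhx1, at 3.31 ± 2.55, and Hnf4g, at 2.11 ± 0.836 RPKM, with ranges that overlapped.

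**Figure D1:**
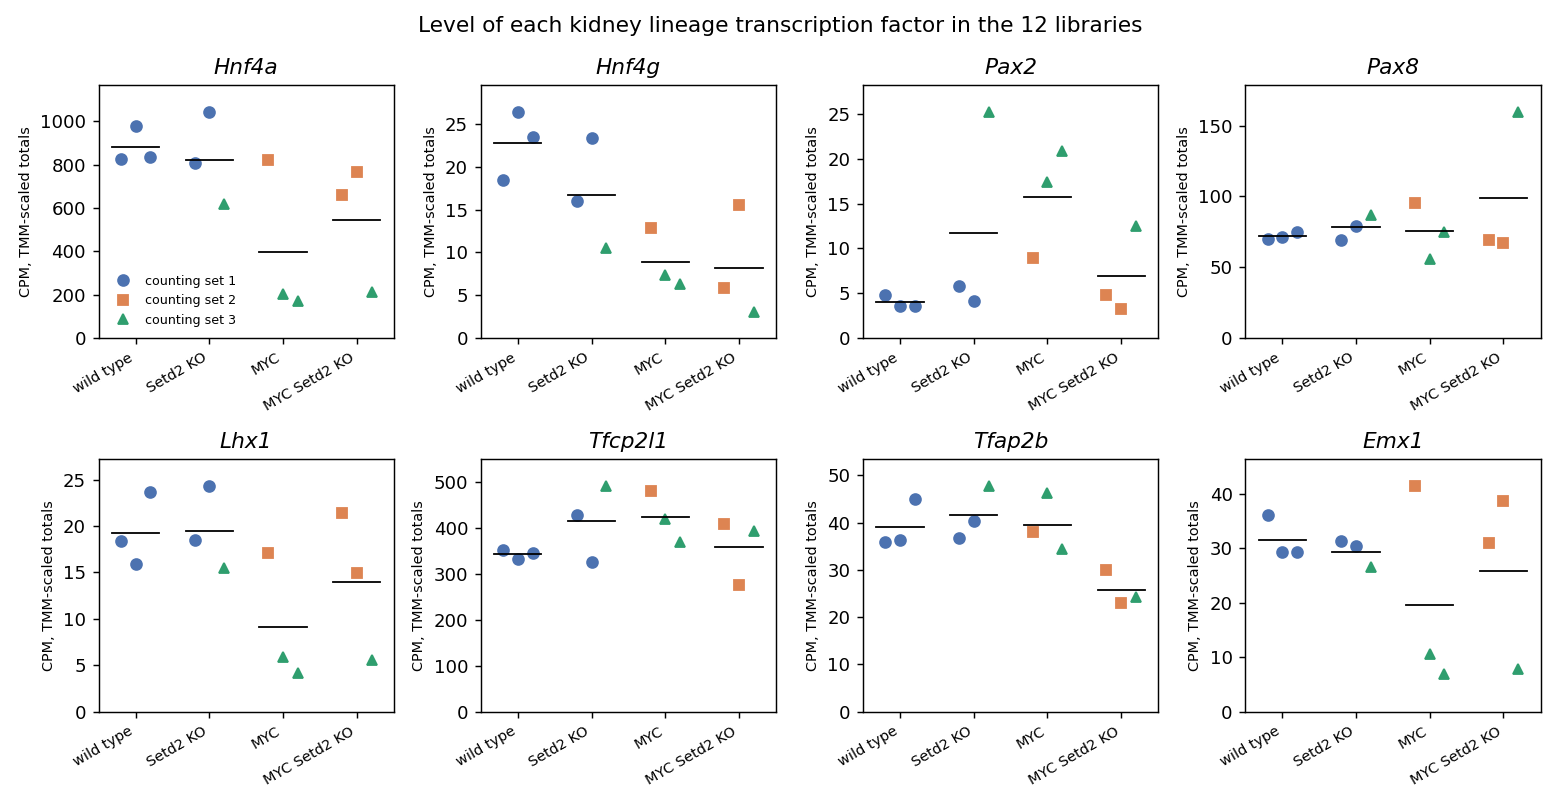
TMM-scaled CPM (vertical axes, linear, from 0) of the 8 members in the 12 libraries by group (horizontal axes); each point is 1 library, its shape and colour give the counting set, and the line is the group mean. Hnf4a, Lhx1 and Emx1 were lowest in the same 3 libraries, MYC 2 and 3 and MYC Setd2 knockout 3, while Pax2 was highest in Setd2 knockout 3 and in MYC 2 and 3.

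In the fit by group, 0 of the 8 members were called (edgeR quasi-likelihood test, adjusted p under 0.05 over all genes) in any of the 7 comparisons made. The comparison with the most calls was MYC averaged over Setd2 genotype, that is the 6 libraries with the MYC allele against the 6 without, where 11.7% of all tested genes were called; for MYC against wild type it was 7.99%. The MYC Setd2 knockout against Setd2 knockout comparison had 0% (1624 genes at an unadjusted p under 0.05, and 186 called by DESeq2). With no adjustment, a p under 0.05 was reached in MYC against wild type by Hnf4g and Pax2, as by 6126 of the 17019 tested genes. The Setd2 knockout difference averaged over MYC genotype called 0.0411% of genes. Because the sets split the groups, a fit with a term for the counting set is given beside the fit by group for the results it moves most. With that term 0 members were called in Setd2 knockout against wild type (0% of genes), in the Setd2 knockout difference averaged over MYC genotype (0.141%) or in the interaction (0.106%).

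Hnf4a, the proximal tubule regulator (chromosome 2, 163506809 to 163572907 in the deposited GRCm38 coordinates), divided the libraries with the MYC allele. Wild type 1, 2 and 3 held 829, 981 and 838 CPM of Hnf4a, and the Setd2 knockout libraries, in the same order, 807, 1044 and 618. The MYC libraries held 821, 204 and 172 CPM, and those of MYC Setd2 knockout 659, 766 and 213. So 3 libraries were low, and MYC 1 and MYC Setd2 knockout 1 and 2 stood above the lowest library without the allele. In libraries of mixed cells, fewer cells of a type and less RNA per cell cannot be told apart. The MYC against wild type log2 fold change was -1.14 ± 0.62 (± SE, 3 libraries a group, edgeR adjusted p = 0.207), and the MYC Setd2 knockout against Setd2 knockout one -0.59 ± 0.62 (adjusted p = 0.788). With the set term these values were -1.58 ± 0.33 (edgeR adjusted p = 0.0438) and -1.66 ± 0.29 (adjusted p = 0.0113), and -1.62 ± 0.28 for MYC averaged over Setd2 genotype (adjusted p = 0.0112). Set 2 holds only libraries with the MYC allele, among them MYC 1, so the term for it takes up their shared level. The comparison with libraries lacking the allele then runs through set 3, where Setd2 knockout 3 is the only such library. Without MYC 1 the fit by group gave -2.21 for MYC against wild type (edgeR adjusted p = 0.0216), in a fit that called 24.8% of genes. That was the lowest of 12 fits with 1 library left out, which ran from -2.21 to -0.80.

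The 3 libraries low in Hnf4a all belong to set 3, which holds 1 library without the allele, Setd2 knockout 3. Within set 3, Hnf4a was lower in MYC 2 and 3 than in Setd2 knockout 3 by a log2 difference of -1.72, and 3.17% of tested genes had a lower value; MYC 2 and 3 have Ddx3y and Setd2 knockout 3 does not, so this is a difference of sex too. MYC Setd2 knockout 3, which like Setd2 knockout 3 has Xist and no Ddx3y, differed from it by -1.54. There 12.9% of tested genes had a lower value. Within the Setd2 knockout group, the set 3 library stood -0.57 from those of set 1. A single library carries each of these differences on 1 side, so they have no replicate check. The antisense gene Hnf4aos overlaps Hnf4a and ranged from 1.47 to 10.4 CPM on total counts; the sources used here do not give the strand setting of the counting.

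Lhx1 and Emx1 were low in the same 3 libraries as Hnf4a. Lhx1 (chromosome 11, 84519379 to 84525534) held 18.3, 15.9 and 23.6 CPM in the wild type libraries, then 18.5, 24.3 and 15.5 for Setd2 knockout, 17.1, 5.94 and 4.19 with MYC, and 21.4, 14.9 and 5.54 with both, each in the order of libraries 1, 2 and 3. Emx1 (chromosome 6, 85187931 to 85204463) held 36.1, 29.2 and 29.3 CPM in the wild type libraries, then 31.2, 30.3 and 26.6 for Setd2 knockout, 41.4, 10.6 and 6.97 with MYC, and 30.9, 38.6 and 7.79 with both. Both genes therefore overlapped between each pair of groups, and MYC 1 held the highest Emx1 level of all libraries. By group the log2 fold changes in MYC against wild type were -1.09 ± 0.56 for Lhx1 and -0.68 ± 0.66 for Emx1 (edgeR adjusted p = 0.187 and 0.460). Within set 3, MYC 2 and 3 differed from Setd2 knockout 3 by -1.62 for each gene, which is a difference of sex too. Lower values were found for 3.74% and 3.71% of tested genes. MYC Setd2 knockout 3, which like Setd2 knockout 3 has Xist and no Ddx3y, differed from it by -1.47 for Lhx1 and -1.76 for Emx1. There 13.9% and 10.5% of tested genes were lower, with 1 library on each side.

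With the set term, Emx1 was called in MYC against wild type, at -1.62 ± 0.34 (edgeR adjusted p = 0.0408), while Lhx1 stood at -1.46 ± 0.42 (adjusted p = 0.0992). With Setd2 knockout as the reference for MYC Setd2 knockout both were called, at -1.50 ± 0.37 for Lhx1 and -1.80 ± 0.29 for Emx1 (edgeR adjusted p = 0.0337 and 0.00946). By group that comparison gave -0.48 ± 0.56 for Lhx1 and -0.19 ± 0.66 for Emx1, neither called. Members called with the set term were all lower: 2 of 8 in MYC against wild type, where 2.39% of all genes were called and 1.47% were lower. For MYC Setd2 knockout against Setd2 knockout the count was 3 of 8, with 8.85% of genes called and 5.75% lower. For MYC averaged over Setd2 genotype it was also 3 of 8, with 7.23% called and 5.02% lower. These calls rest on Setd2 knockout 3, which alone links the sets. Without the 4 libraries of set 3, Emx1 stood at 0.43 (MYC against wild type) and 0.17 (MYC Setd2 knockout against Setd2 knockout), neither called.

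**Figure D2:**
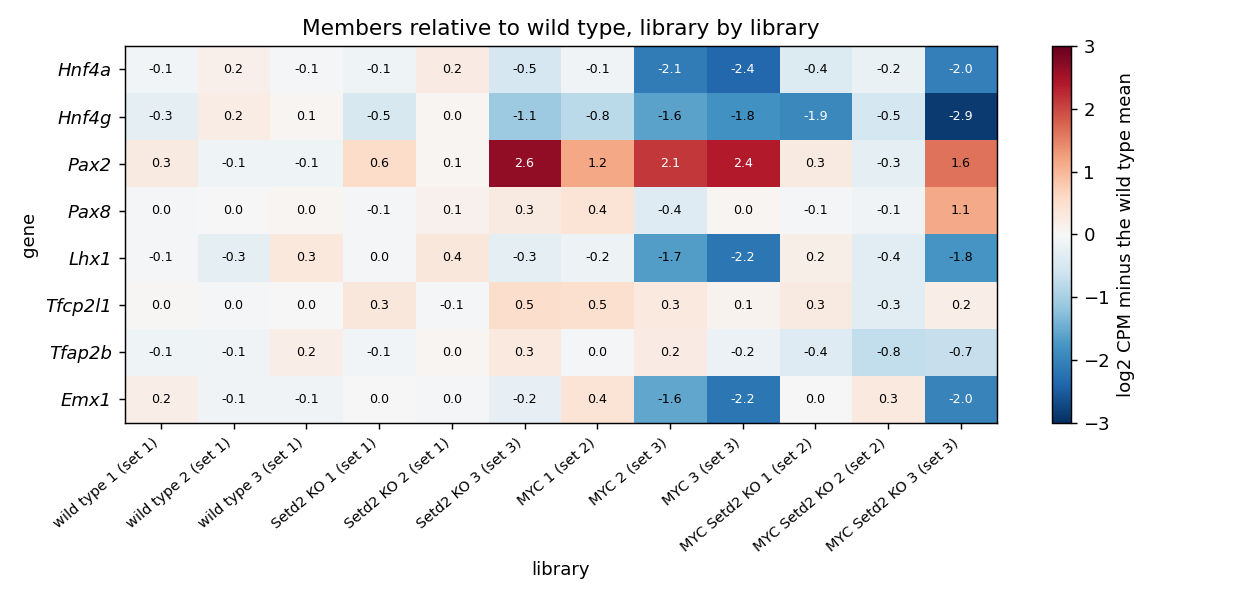
Log2 CPM of the members (rows) in each library (columns) minus the mean of the 3 wild type libraries, on a colour scale from -3 to 3 with the difference written in each cell. Hnf4a, Lhx1 and Emx1 were all lowest in MYC 2 and 3 and MYC Setd2 knockout 3; Pax2 was above the wild type mean in all 4 libraries of set 3.

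Hnf4g, the second HNF4 receptor (chromosome 3, 3508030 to 3659800), did not follow Hnf4a in all libraries. Its levels were 18.5, 26.4 and 23.5 CPM in the wild type libraries, then 16.0, 23.4 and 10.5 for Setd2 knockout, 12.8, 7.34 and 6.31 with MYC, and 5.83, 15.5 and 3.02 with both. All 3 MYC libraries lay below all 3 wild type libraries, which 25.0% of tested genes did in that comparison, as Hnf4a did by a narrow margin. MYC 1 held 821 CPM of Hnf4a, close to the lowest wild type library at 829, while its Hnf4g lay below wild type but above Setd2 knockout 3. MYC Setd2 knockout 1 held 659 CPM of Hnf4a, below wild type but above Setd2 knockout 3 at 618. Its Hnf4g lay below every library without the MYC allele. By log2 fold change Hnf4g stood at -1.37 ± 0.54 in MYC against wild type (edgeR adjusted p = 0.111), at -1.05 ± 0.54 for MYC Setd2 knockout against Setd2 knockout (adjusted p = 0.580) and at -1.21 ± 0.38 for MYC averaged over Setd2 genotype (adjusted p = 0.0667). The set term gave -0.97 ± 0.63, -1.46 ± 0.55 and -1.21 ± 0.53 in these comparisons (edgeR adjusted p = 0.456, 0.123 and 0.180). Fitted to the libraries of wild type and MYC alone, Hnf4g was called (-1.34, edgeR adjusted p = 0.0233), as were 31.7% of genes. Per length, Hnf4a stood above Hnf4g by a ratio of 34.2 to 43.0 in wild type. The ratio was 42.8 to 56.3 for Setd2 knockout, 26.2 to 61.4 with MYC and 47.4 to 108 with both. In MYC 2 and 3 the ratio was the lowest of all libraries, at 26.7 and 26.2, and in MYC Setd2 knockout 1 it was the highest.

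The paired-box genes Pax2 and Pax8 differed from each other in how they varied. Pax2 (chromosome 19, 44745688 to 44837871) held 4.81, 3.60 and 3.59 CPM in the wild type libraries, then 5.84, 4.12 and 25.2 for Setd2 knockout, 8.91, 17.4 and 20.9 with MYC, and 4.84, 3.28 and 12.5 with both. All 4 libraries of set 3 were above the other 8, and the highest was Setd2 knockout 3, which lacks the MYC allele. Every MYC library was above every wild type library, as for 25.5% of tested genes. For MYC against wild type its log2 fold change was 1.98 ± 0.70 (edgeR adjusted p = 0.0915) and 0.00 ± 0.45 with the set term. Without the libraries of set 3 it was 1.20 and was called (edgeR adjusted p = 0.0381) along with 16.3% of genes; MYC 1 is then alone in its group and is assumed to vary like the libraries of the other groups. Within the Setd2 knockout group the set 3 library exceeded those of set 1 by 2.34 on the log2 scale.

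Pax2 was not called in the other comparisons. In Setd2 knockout against wild type it stood at 1.55 ± 0.70 (edgeR adjusted p = 1), at 0.32 ± 0.28 with the set term, and within set 1 the difference was 0.30. Relative to MYC, MYC Setd2 knockout stood at -1.19 ± 0.70 by group (edgeR adjusted p = 0.539) and at -0.86 ± 0.26 with the set term (adjusted p = 0.0811). The within-set differences were -1.14 in set 2 and -0.60 in set 3. The interaction, the Setd2 knockout difference with MYC minus that without, was -2.74 ± 0.99 by group (edgeR adjusted p = 0.484), where 0.0118% of genes passed, and -1.17 ± 0.38 with the set term (adjusted p = 0.282).

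Pax8 (chromosome 2, 24420551 to 24480095) kept to a narrow range in most libraries. Its levels were 70.0, 71.6 and 74.9 CPM in the wild type libraries, then 69.1, 79.0 and 86.8 for Setd2 knockout, 95.6, 55.5 and 74.9 with MYC, and 69.5, 67.1 and 159.6 with both. MYC Setd2 knockout 3 was high, and the groups overlapped in each comparison. The log2 fold changes were 0.06 ± 0.33 when MYC was set against wild type, and 0.39 ± 0.33 when MYC Setd2 knockout was set against MYC (edgeR adjusted p = 0.903 and 0.693). The set term gave -0.02 ± 0.56 and 0.41 ± 0.33. Per length, Pax8 exceeded Pax2 by a ratio of 25.0 to 35.8 in wild type. The ratio was 5.90 in Setd2 knockout 3, 5.47 and 6.15 in MYC 2 and 3, and 18.4 to 35.1 in the other libraries.

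The factors of the distal nephron and collecting duct, Tfcp2l1 and Tfap2b, were both called in 0 of the 7 comparisons. Tfcp2l1 (chromosome 1, 118627923 to 118685168) held 352, 332 and 345 CPM in the wild type libraries, then 429, 326 and 492 for Setd2 knockout, 481, 419.6 and 369 with MYC, and 409, 275 and 394 with both. All 3 MYC libraries lay above all wild type libraries, as for 25.5% of tested genes, with a log2 fold change of 0.30 ± 0.24 (edgeR adjusted p = 0.371) that was -0.09 with the set term. Tfap2b (chromosome 1, 19208914 to 19238845) held 35.9, 36.3 and 45.0 CPM in the wild type libraries, then 36.8, 40.4 and 47.8 for Setd2 knockout, 37.9, 46.2 and 34.3 with MYC, and 29.9, 23.1 and 24.3 with both.

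Tfap2b was the member whose lowest libraries were those of 1 genotype. All 3 MYC Setd2 knockout libraries lay below the other 9, a pattern whose share over all genes was not computed. They did not overlap with MYC, as for 6.66% of genes that were lower there, or with Setd2 knockout, as for 4.41%. Against MYC the log2 fold change was -0.62 ± 0.19 (unadjusted p = 0.00902, edgeR adjusted p = 0.214), and against Setd2 knockout it was -0.69 ± 0.19 (unadjusted p = 0.00458, edgeR adjusted p = 0.503). With the set term the values were -0.62 and -0.90 (edgeR adjusted p = 0.0796 and 0.0641). The within-set differences from MYC were -0.53 in set 2 and -0.71 in set 3. The interaction was -0.71 ± 0.27 and did not pass (edgeR adjusted p = 0.484).

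**Figure D3:**
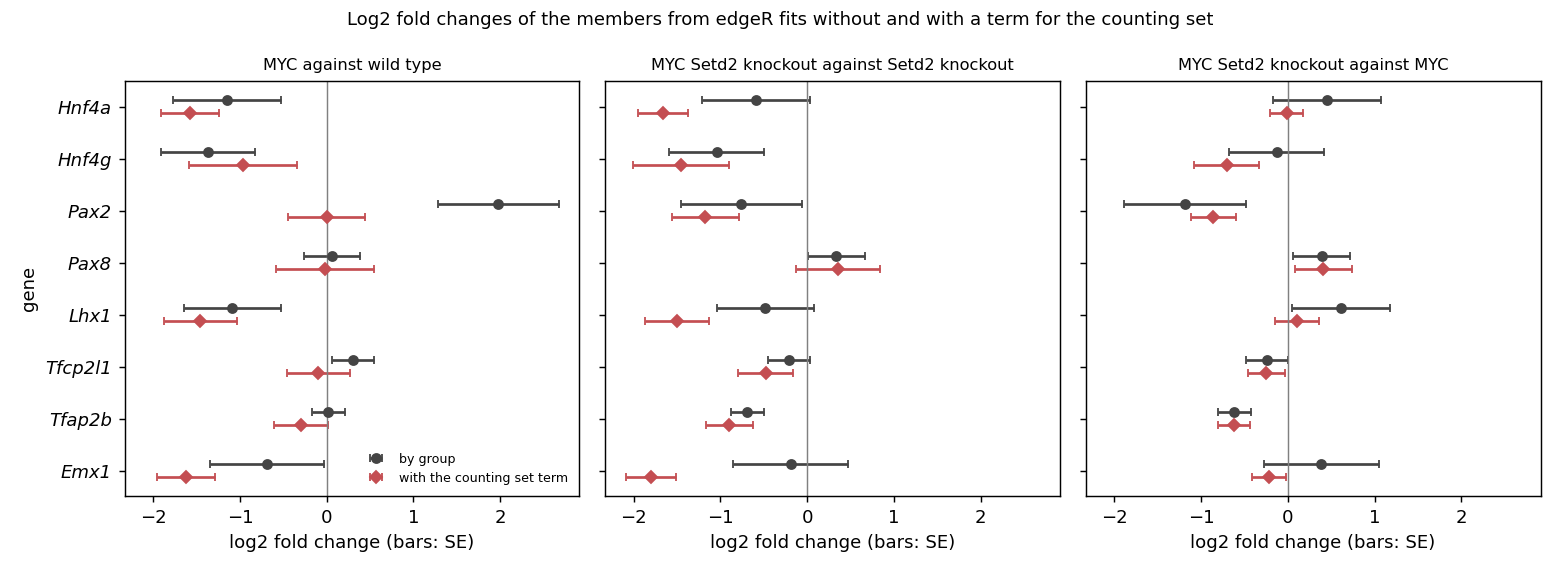
Log2 fold changes (horizontal axes) of the members in 3 comparisons, from the fit by group (dark circles) and the fit with the counting set term (red diamonds); bars are SE. The set term moved Hnf4a, Lhx1 and Emx1 down in both comparisons for the MYC allele, moved Pax2 to 0.00 in MYC against wild type, and left Tfap2b at -0.62 in MYC Setd2 knockout against MYC.

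Without the MYC allele, the Setd2 knockout libraries gave 0 calls among the members. In Setd2 knockout against wild type the values other than that of Pax2 ran from -0.45 ± 0.54 for Hnf4g to 0.28 ± 0.24 for Tfcp2l1 (edgeR adjusted p = 1 for each), and edgeR called 0% of all genes. Unadjusted, 495 genes had a p under 0.05; 59 were called by DESeq2. Within set 1 the 8 members differed by -0.22 to 0.30 on the log2 scale. For MYC Setd2 knockout against MYC 0 members were called, by group or with the set term, where 0.176% and 5.51% of genes were, and Hnf4a stood at 0.45 ± 0.62 and -0.02 ± 0.19.

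On total counts without TMM the median gene shifted by 0.76 in MYC against wild type, 29.7% of genes were called, and 3 members were higher: Pax2 at 2.80, Tfcp2l1 at 1.05 and Tfap2b at 0.79 (edgeR adjusted p = 0.0420, 0.0330 and 0.0492). Relative to that shift Tfap2b stood near the median gene. DESeq2, with its own size factors, called Pax2 in this comparison (2.01, adjusted p = 0.0292), as it did 15.3% of genes.

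Segment markers were read beside these factors. Proximal tubule markers, the segment of Hnf4a, had a median log2 CPM of 9.83 to 10.05 in wild type, 9.92, 10.12 and 8.73 in Setd2 knockout 1, 2 and 3, 9.10, 7.43 and 7.28 in MYC, and 9.15, 9.51 and 5.74 in MYC Setd2 knockout. The 3 libraries low in Hnf4a were the 3 lowest here too. Of the 35 markers 0 were called in MYC against wild type by group, with a median log2 fold change of -1.80 beside 0.00 over all genes. With the set term 8 fell in this comparison, and 17 when MYC Setd2 knockout was set against Setd2 knockout. The most abundant markers were Kap, an androgen-regulated kidney protein, and Slc34a1, the phosphate carrier. Kap, in MYC against wild type, stood at -1.05 ± 1.60 by group and 1.27 ± 2.17 with the set term (edgeR adjusted p = 0.651 and 0.831). Slc34a1 stood at -1.95 ± 1.45 and -2.46 ± 1.31 (adjusted p = 0.358 and 0.339).

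**Figure D4:**
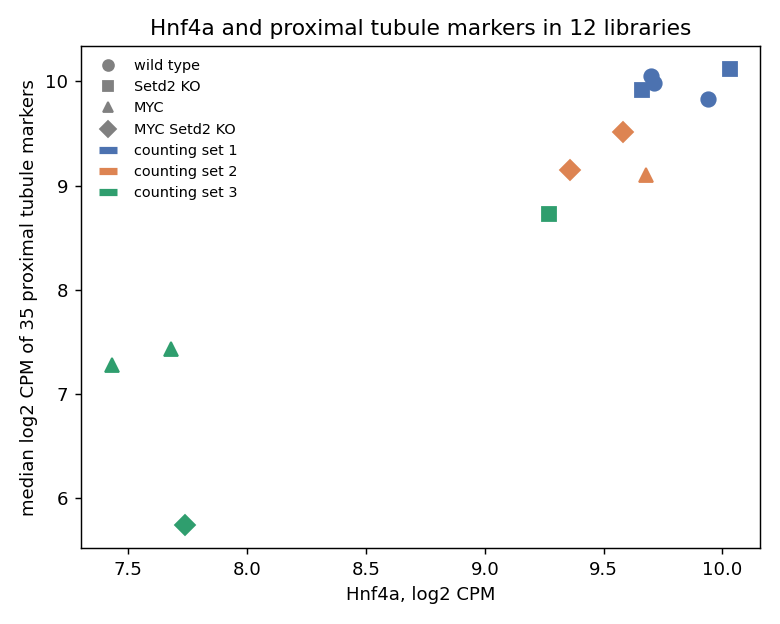
Median log2 CPM of 35 proximal tubule markers (vertical axis) against log2 CPM of Hnf4a (horizontal axis), 1 point per library; shape gives the genotype and colour the counting set. MYC 2 and 3 and MYC Setd2 knockout 3 stood apart at the lower left, with marker medians of 7.43, 7.28 and 5.74; the other 9 libraries had medians of 8.73 or more.

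Markers of macrophages and injured tubule were higher in several libraries with the MYC allele, among them those low in Hnf4a. Urothelial markers were higher in the MYC libraries. The 11 macrophage markers found summed to 80.0 to 92.3 CPM on total counts in wild type, against 2654 and 2811 for MYC 2 and 3 and 384 for MYC Setd2 knockout 3; libraries not low in Hnf4a held 335 (MYC 1), 343 (MYC Setd2 knockout 1), 201 (MYC Setd2 knockout 2) and 374 (Setd2 knockout 3). In MYC against wild type 8 of the 11 rose and 0 fell, with Lyz2, the macrophage lysozyme, at 4.72 ± 0.73 (edgeR adjusted p = 0.0407); with the set term 1 rose. Injured tubule markers, also on total counts, summed to 945 to 1123 CPM in wild type. They summed to 8906, 10720 and 9226 for MYC 2, MYC 3 and MYC Setd2 knockout 3, which were low in Hnf4a. MYC 1 and MYC Setd2 knockout 1 and 2, which were not, summed to 2371, 3332 and 1247 CPM. By median log2 CPM of these markers the split was not the same. MYC 2 and 3 stood at 6.57 and 6.71, and MYC Setd2 knockout 3 and MYC 1 both at 4.85. Of these 11 markers 7 rose and 0 fell in MYC against wild type, the largest being Lcn2, an iron carrier, at 8.35 ± 1.67 (edgeR adjusted p = 0.0479); with the set term 3 rose. Urothelial markers summed to at most 8.55 CPM in wild type and to 65.8, 68.3 and 229 in MYC 1, 2 and 3. In the 3 libraries of MYC Setd2 knockout they summed to 1.64, 2.48 and 116.9. The sum of 116.9 was carried by few of the 9 genes. Their median log2 CPM in that library was -0.41, against -1.08 to -0.08 in wild type and 2.38 to 4.16 in MYC. Podocyte markers were lower than in wild type in the libraries low in Hnf4a. Wild type held 721 to 1351 CPM, and MYC 2, MYC 3 and MYC Setd2 knockout 3 held 253, 278 and 196. MYC 1 held 330, and MYC Setd2 knockout 1 and 2 held 2523 and 2200. In MYC against wild type 0 of 10 were called, with a median log2 fold change of -2.39. Endothelial markers had 0 of 12 called and a median of -0.44, while 4 of 12 fibroblast and mural cell markers rose. The part of these cells in the levels of the members was not tested.

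Markers of the segments of the other members gave a mixed picture. Distal convoluted tubule markers, the segment of Tfap2b, had 0 of 14 called in MYC Setd2 knockout against MYC by group, with a median of 0.45. Under the set term 0 of 14 were called too, the median being -0.22; Tfap2b stood at -0.62 in both fits. Principal and intercalated cell markers, the cells of Tfcp2l1, had medians of -0.80 and -1.05 there by group, with 0 of 11 and 0 of 12 called. The set term gave medians of -1.44 and -1.32, with 2 of 11 and 6 of 12 lower. In MYC against wild type 2 intercalated cell markers rose: Aqp6, an intracellular water channel, by 2.50 ± 0.52 on the log2 scale, and Atp6v0d2, a proton pump subunit, by 1.82 ± 0.37 (edgeR adjusted p = 0.0420 and 0.0407). Neither was called with the set term. Principal cell markers, which share the collecting duct with Pax2, summed to 1194 CPM in Setd2 knockout 3, the highest of the 12 libraries, where Pax2 was highest too. That library also held the highest sum of thick ascending limb markers, 11720 CPM against 2855 to 9908 in the others.

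Other transcription factors of the kidney were compared as a list of 52, of which 48 were tested. In MYC against wild type 0 rose and 2 fell, with a median of 0.22 beside 0.00 over all genes: Hoxa9 (log2 fold change -1.06 ± 0.26) and Hoxa10 (-0.999 ± 0.24), homeobox factors of the posterior body axis (edgeR adjusted p = 0.0447 and 0.0445). Neither was called with the set term (adjusted p = 0.459 and 0.119). For MYC averaged over Setd2 genotype 1 rose and 3 fell. Sox9, a factor of tubule progenitors and repair, rose by 3.40 ± 0.73 (edgeR adjusted p = 0.0320). Its counts were 12 to 30 in wild type, at most 14 for Setd2 knockout, 29, 147 and 190 in MYC, and 10, 6 and 345 in MYC Setd2 knockout, so it was highest in the 3 libraries where Hnf4a was lowest. Maf, a leucine zipper factor and 1 of the 2 most abundant in the list with Ppara, a nuclear receptor of fatty acid oxidation, fell by 1.79 ± 0.49 (edgeR adjusted p = 0.0477). With the set term Maf stood at -1.98 ± 0.30 there (adjusted p = 0.00814). Ppara, in MYC against wild type, stood at -1.60 ± 0.58 by group (edgeR adjusted p = 0.0954) and was called with the set term (-1.78 ± 0.34, adjusted p = 0.0346).

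Six2, the nephron progenitor factor, had 0 counts in every library.

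Among 27 paralogs of the members and RXR partners of HNF4-type receptors, 11 were tested, and 16 had too few counts. Grhl3, a grainyhead factor of barrier epithelia, was the only one to rise in MYC against wild type (2.81, edgeR adjusted p = 0.0447), from counts of 5, 4 and 11 in wild type to 23, 23 and 77 in MYC, with 0 counts in all MYC Setd2 knockout libraries, where it was called lower than in MYC (edgeR adjusted p = 0.0435). With the set term the rise was not called (adjusted p = 0.360). Emx2 fell by 0.75 ± 0.19 for MYC averaged over Setd2 genotype (edgeR adjusted p = 0.0357), and with the set term was not called (adjusted p = 0.143). On the TMM scale the wild type libraries held 36.5, 52.0 and 38.1 CPM of Emx2, those of MYC 34.2, 25.9 and 26.0, and those with both 17.0, 28.5 and 14.8. Every MYC library thus lay below every wild type library, as for 25.0% of tested genes. The most abundant of the list, Ubp1 and Rxrb, stood at -0.12 ± 0.30 and 0.31 ± 0.24 in MYC against wild type (edgeR adjusted p = 0.794 and 0.359). Of 19 cofactors 1 rose there, Ssbp4, which binds single-stranded DNA and partners LIM factors, by 1.42 ± 0.25 (edgeR adjusted p = 0.0407; 0.126 with the set term). Ppargc1a, a coactivator of HNF4A, stood at -0.52 ± 0.26 (adjusted p = 0.173), and Cited2 at -0.76 ± 0.41 (adjusted p = 0.205).

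The genes most like each member over the 12 libraries were taken by Pearson's r of log2 CPM among 12502 other genes. For Hnf4a they were Gcdh (r = 0.996), Kcnj15 (0.991) and Fah (0.990), the first and last of which encode enzymes of amino acid breakdown; without the 4 libraries of set 3 these r were 0.918, 0.778 and 0.670. For Hnf4g they were Ubxn8 (0.988), Rnf152 (0.984) and Cndp1 (0.975), with 0.974, 0.972 and 0.982 without set 3. Emx1 was most like Aldh16a1 (0.980), Idh2 (0.980) and Ndufv1 (0.979), which fell to 0.554, 0.396 and 0.611 without set 3, so that the likeness rests largely on those libraries. Lhx1 was most like Pdk2 (0.988), Cnnm4 (0.985) and Atp6v0a4 (0.982), with 0.988, 0.887 and 0.815 without set 3.

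Neighbours of the other 4 members were found by the same measure. Pax2 was most like Cd82 (0.978), Slc43a2 (0.974) and Matn2 (0.974), and Pax8 most like Dcaf5 (0.961), Agap3 (0.960) and Wdr5 (0.950). For Tfcp2l1 the nearest were Uroc1 (0.900), Dapk2 (0.868) and Umod (0.860), the uromodulin of the thick ascending limb. Tfap2b was nearest to Uxs1 (0.907), Pik3r1 (0.895) and Mcoln3 (0.854). The 12 libraries share depth, set and genotype differences, and these r are given as a description of likeness.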

How the data were processed

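Poly(A) RNA was sequenced from both ends with a directional kit, per the labels' protocols. The table holds raw read counts per gene symbol as deposited by the authors, with gene positions and a transcript length in bases, which the deposited table gives as another number and which was used for RPKM. Per the submitters' processing notes, MACS2 2.1.1, HISAT2, StringTie, Trimmomatic 0.35, cutadapt 1.9.1 and FastQC were used, with builds GRCm38 and mm10, without roles. The counter and its strand setting: not given in the sources used here.

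edgeR 4.0.16 in R 4.3.3 was fitted to all 12 libraries (TMM, filterByExpr, quasi-likelihood F test, 1 coefficient per group, 8 residual degrees of freedom, or 6 with the set term), with Benjamini-Hochberg adjustment over 17019 genes; called means an adjusted p under 0.05. SE come from each gene's information matrix and quasi-likelihood dispersion. Log2 CPM used a prior count of 2. The fit was tested on simulated counts with known changes, which had less spread than these libraries and no sets. Here the common biological coefficient of variation was 0.58 by group and 0.27 with the set term. The simulation therefore checked the calculation and does not show which changes could be found here. DESeq2 1.42.0 and limma 3.58.1 (voom) were alternatives. With 3 libraries per group p-values measure the spread between libraries of a group. By group that spread holds differences between mice, between sets in all groups other than wild type, and of sex in both Setd2 knockout groups. Counting error adds to it most for genes of low counts, such as Grhl3 and Sox9. Library pairs within a group differed by more than sampling noise (lowest median chi-square 1.97).

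The members and the lists were chosen with earlier results of these data known. Besides all members, the text names from each list the called genes of largest change, at most 3 per direction, the 2 of highest mean CPM, and 3 nearest genes per member by r among genes of mean log2 CPM of at least 1. For some lists and comparisons only the leading genes of this rule are printed.

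Same-numbered libraries of Setd2 knockout and MYC Setd2 knockout deviated together (correlations 0.366, 0.552 and 0.596 for numbers 1, 2 and 3), and number 3 is in set 3 in both; the other pairs of groups did not meet 0.1 for every number. All 12 count columns were used. Some genes of the lists are not reported here by name.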

Additional observations from a re-analysis of the deposited data

How the results depend on the processing

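In the fit by group 0 members were called in any comparison, and this held under every alternative run for the interaction, for MYC Setd2 knockout against MYC, for Setd2 knockout against wild type and Setd2 knockout averaged over MYC genotype. In MYC against wild type the members called numbered 3 on total counts, 1 by DESeq2, 2 with the counting set term, 1 without the libraries of counting set 3, 2 in the 2 groups only, and 0 to 3 when 1 library was left out. Without MYC 1 these were Hnf4a (-2.21), Lhx1 (-1.91) and Emx1 (-1.83), where 4422 of 17796 genes were called. Without Setd2 knockout 3 it was Pax2 (1.95), where 3174 of 17801 genes were called. Without MYC Setd2 knockout 3 they were Hnf4g (-1.37) and Pax2 (1.99), where 5264 of 17734 genes were called. In MYC Setd2 knockout against Setd2 knockout 3 were called with the set term. For MYC averaged over Setd2 genotype 1 was called by DESeq2, 1 by limma-voom (both Hnf4g), 3 with the set term, and 0 to 3 when 1 library was left out. In that comparison Hnf4g stood at -1.28 with the replicate block and was called, which made 1 member; the block called no other member. DESeq2 called 4292 of 31235 genes in that comparison, limma-voom 1184 of 17019 and the replicate block 2292 of 17019. Without MYC 1 Hnf4a (-1.41), Hnf4g (-1.39) and Lhx1 (-1.21) were called there, as were 4194 of 17796 genes. Without Setd2 knockout 3 Hnf4g (-1.34) and Pax2 (1.21) were called, as were 4118 of 17801 genes. Without MYC Setd2 knockout 2 Hnf4g (-1.66) was called, as were 2448 of 17835 genes.

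Values changed sign as follows. In Setd2 knockout against wild type Hnf4a was 0.09 and Emx1 0.12 on total counts, Hnf4a 0.07 and Tfap2b -0.02 with the set term, Hnf4a 0.09 without set 3, and Lhx1 -0.06 with the replicate block. In MYC against wild type Tfap2b was -0.02 without the filter, -0.30 with the set term and 0.00 without set 3; Pax2, Pax8 and Tfcp2l1 were 0.00, -0.02 and -0.09 with the set term; Emx1 was 0.43 without set 3. In MYC Setd2 knockout against MYC Hnf4a and Emx1 were -0.02 and -0.21 with the set term, and Hnf4a, Pax8 and Emx1 -0.23, -0.51 and -0.28 without set 3. In MYC Setd2 knockout against Setd2 knockout Pax8 and Emx1 were -0.12 and 0.17 without set 3, and Emx1 was 0.30 without set 3 for MYC averaged over Setd2 genotype. The cause was not tested.

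With 1 library left out, values that crossed 0 ranged as follows. In Setd2 knockout against wild type they ran from -0.16 to 0.00 for Emx1, -0.31 to 0.07 for Hnf4a, -0.19 to 0.18 for Lhx1 and -0.02 to 0.20 for Tfap2b. In MYC against wild type they ran from -0.12 to 0.25 for Pax8 and -0.10 to 0.11 for Tfap2b. In MYC Setd2 knockout against MYC they ran from -0.02 to 1.53 for Emx1, -0.99 to 0.27 for Hnf4g and -0.16 to 0.62 for Pax8. In MYC Setd2 knockout against Setd2 knockout they ran from -0.61 to 0.22 for Emx1, -1.56 to 0.47 for Pax2 and -0.22 to 0.54 for Pax8.

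Counts over all genes moved more: for MYC against wild type 1359 were called by group, 407 with the set term, 691 by limma-voom, 5048 on total counts, 4770 by DESeq2, 2279 with the replicate block, and 1 to 5264 when 1 library was left out; for MYC averaged over Setd2 genotype 1991 were called, 1184 to 4292 under other settings and 1 to 4194 when 1 library was left out. For MYC Setd2 knockout against MYC it was 30, with 0 to 938. MYC Setd2 knockout against Setd2 knockout had 0, with 0 to 1506. The interaction had 2, with 0 to 286, and Setd2 knockout averaged over MYC genotype 7, with 0 to 274. On plain totals the mean level of Hnf4a in wild type was 700.5 CPM and that of Pax8 in MYC 99.5 CPM; 12 of 32 group means moved by more than 1 SD.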
